A study of Homo sapiens with 24 samples.

Results

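The box C/D small nucleolar RNAs (snoRNAs) described here are the genes of the count table whose symbols begin with SNORD. The U3, U8 and U13 genes (SNORD3, SNORD118 and SNORD13 names), the SNORD113 to SNORD116 arrays and the snoRNAs encoded in the SNHG1 and GAS5 host genes were left out. This left 196 of the 28307 genes in the table. The study sequenced RNA recovered with GFP-tagged proteins from HCT116, a human colorectal carcinoma cell line in which GFP was knocked into RUVBL1 or into RPAP3. Lysates were bound to GFP-Trap beads (GFP beads below) or to agarose beads carrying no anti-GFP binder (uncoupled beads), and each of the 12 groups had 2 libraries. In the RUVBL1 line, both kinds of beads were used on cells that were untreated, given puromycin (100 µg/mL for 30 min), given CB-6644 (0.5 µM for 16 h) or given both drugs. In the RPAP3 line, both kinds of beads were used on untreated and on puromycin-treated cells, and CB-6644 was given only to the RUVBL1 line. All libraries came from cells carrying a GFP knock-in, and the labels do not say whether each line is 1 clone or whether replicates are separate cultures. The p-values below therefore measure only how far these libraries scatter, and that scatter may be technical.

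Box C/D snoRNAs are short nuclear RNAs, most of them cut from introns of host genes, and they pair with ribosomal RNA or U6 snRNA to direct 2′-O-methylation. Each is held by the proteins NOP56, NOP58, fibrillarin and SNU13, and the particle is put together with the help of the AAA+ ATPases RUVBL1 and RUVBL2, of RPAP3 and PIH1D1 in the R2TP chaperone complex, and of factors such as NUFIP1, ZNHIT3 and ZNHIT6. CB-6644 inhibits the ATPase activity of RUVBL1 and RUVBL2, and puromycin releases nascent chains from ribosomes. Box H/ACA snoRNAs, which guide pseudouridylation and carry other core proteins, served as the comparison class.

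The family takes its name from a pair of short motifs, and SNORD58B, a copy in the ribosomal protein gene RPL17, is shown for them because it is the member whose complete sequence was at hand. It lies at chr18:49491664-49491729 on the minus strand of GRCh38.p14, and the sequence was read from RefSeq.
SNORD58B: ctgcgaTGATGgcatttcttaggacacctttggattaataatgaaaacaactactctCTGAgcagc
Capitals mark TGATG, the core of box C, and CTGA, box D, in these 66 bases. The pair was searched in this order on the printed strand, and 0.641% of 35116 promoter windows hold it in the stretch of the same length and position. SNORD58B itself had 0 counts in all 24 libraries, whereas its relatives in the same host gene, SNORD58A and SNORD58C, were detected and are described below.

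Of the 196 members, 165 had at least 1 count and 31 had none in any library. All 196 could be placed in the gene table for GRCh38.p14, with annotated lengths of 48 to 237 bases and a median of 76. A host gene was found for 183 of them in 117 genes: 41 lay in ribosomal protein genes, 27 in long non-coding RNA genes and 115 in other protein-coding genes. The filter on low counts left 113 members for testing with RUVBL1 and 59 with RPAP3. The 52 members with a count that were not tested in the RUVBL1 line had at most 47 counts in all its libraries together. Many of the 113 passed only because they were high on GFP beads after CB-6644, so counts are also given for the 54 members that pass the filter on uncoupled beads alone. Names from SNORD126 upward make up 49 of the 196 members, of which 8 were tested in the RUVBL1 line. The 5 members of the imprinted 15q11 region outside the arrays (SNORD64, SNORD107, SNORD108, SNORD109A and SNORD109B) had 0 counts in every library.

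Total counts ranged from 9019665 to 50394245 per library. The epithelial markers KRT8 (552 to 3114 CPM), KRT18 (399 to 1281 CPM), EPCAM (87.9 to 471 CPM) and CDH1 (13.9 to 57.1 CPM) were present in all libraries, while PTPRC, HBB and ALB stayed at or below 0.375 CPM. KRT20, also on the epithelial list, was low, at 0.141 to 7.61 CPM with a median of 1.46 CPM. Here CPM means TMM-scaled counts per 1e6 counts of a library. COL1A1, the fourth marker of other cell types, ranged from 5.50 to 34.6 CPM. Summed over these 4 markers, the level was 7.22 and 34.7 CPM on GFP beads after CB-6644 against 5.50 and 5.51 CPM on uncoupled beads, and their part in the results below was not tested. After both drugs it was 8.19 to 19.5 CPM on GFP beads and 7.49 to 7.88 CPM on uncoupled beads. On the GFP beads, replicate 2 with CB-6644 and replicate 1 with both drugs also stood apart in box H/ACA snoRNAs, whose summed level was 954 and 534 CPM in these libraries against 60.3 to 247 CPM in the other 22. Most called counts, medians and main class counts that use them are also given without both.

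The summed level of the 196 box C/D snoRNAs was higher on RUVBL1 GFP beads after CB-6644, with or without puromycin, than in the other 20 libraries. It was 2129 and 5597 CPM on GFP beads after CB-6644, against 120 and 112 CPM on uncoupled beads. After both drugs it was 5140 and 3724 CPM on GFP beads, against 132 and 184 CPM on uncoupled beads. The other 20 libraries, uncoupled beads included, lay between 70.4 and 208 CPM, so the ranges did not overlap. The ratio of group means was 33.3 after CB-6644 and 28.1 after both drugs, whereas it was 1.56 in untreated and 1.29 in puromycin-treated RUVBL1 cells, and 1.16 and 0.938 in untreated and puromycin-treated RPAP3 cells. These are shares of each library's reads, so more of these RNAs on the beads and less of other RNA there cannot be told apart.

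**Figure D1:**
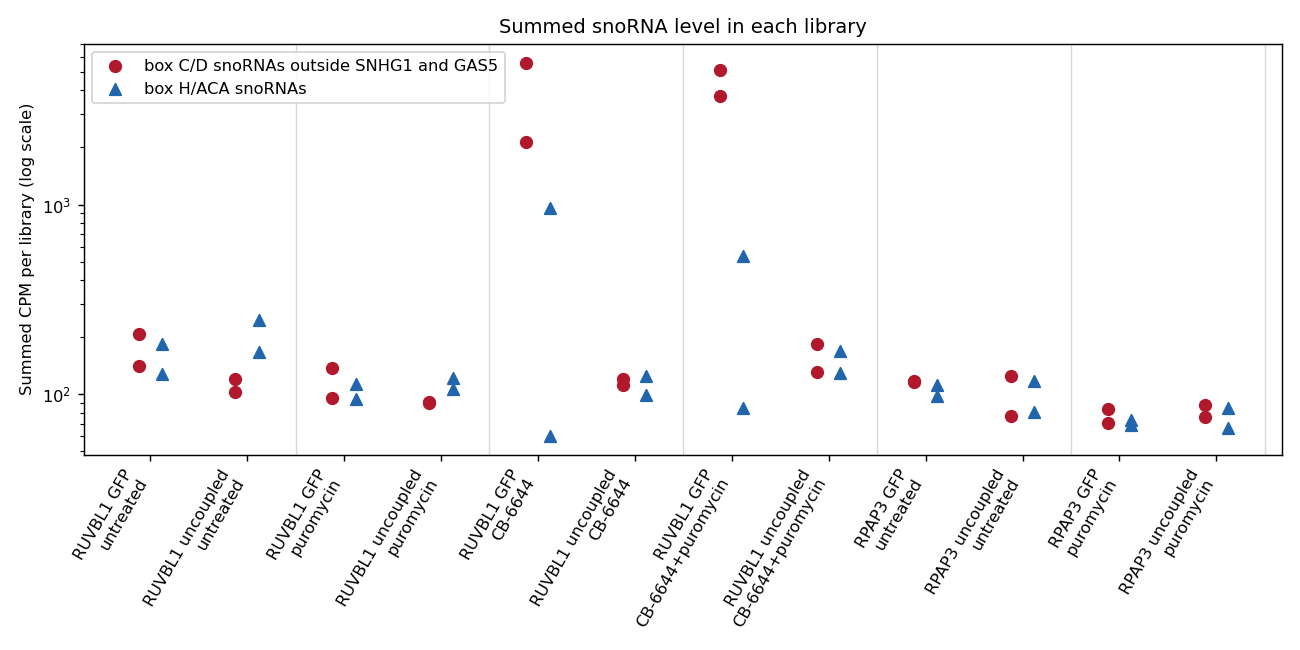
Summed CPM (log scale) of the 196 box C/D snoRNAs (circles) and of 182 box H/ACA snoRNAs (triangles) in each of 24 libraries, 2 points per group. The 4 GFP libraries after CB-6644, with or without puromycin, hold 2129 to 5597 CPM of box C/D snoRNAs, against 70.4 to 208 CPM in the other 20.

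After CB-6644, 60 of the 113 tested members were higher on GFP than on uncoupled beads and 0 were lower, where 1.87% of all 15976 genes tested were called higher (edgeR's quasi-likelihood test with Benjamini-Hochberg adjustment over all genes). In what follows, "rose" and "fell" compare GFP with uncoupled beads under the same treatment, not treated with untreated cells. Among the 54 members that pass on uncoupled beads alone, 39 rose (72.2%), against 1.82% of the 15049 genes that pass in this way. All 54 had a positive log2 difference, ranging from 1.18 to 8.92 with a median of 4.60, while the median of those 15049 genes was -0.01. In CPM, both GFP libraries lay above both uncoupled libraries for 120 of the 152 members with a count (78.9%), against 29.8% of all genes with a count. The 60 came from 17 chromosomes, and 58 of them lie in 40 tested host genes, while SNORD88A and SNORD88C have no host in the table. For fits that left out a single library no share of all genes is given, so their counts need not be particular to the snoRNAs. Without both libraries that were high in H/ACA snoRNAs 37 members rose, against 0.975% of all genes, and among the 54 that pass on uncoupled beads 29 rose, with a median log2 difference of 3.54. The count was also 37 without the GFP library of replicate 2 alone, and 23 without either uncoupled library.

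**Figure D2:**
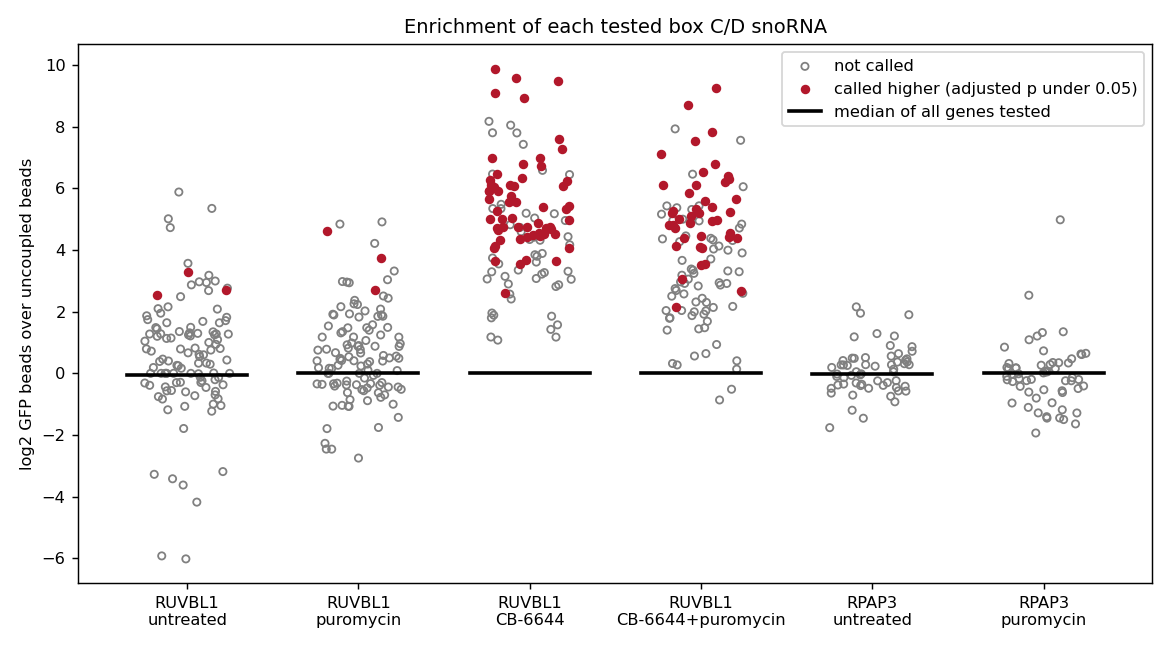
Log2 difference of GFP over uncoupled beads for each tested member (113 with RUVBL1, 59 with RPAP3), with called members filled and the median of all genes tested as a bar. After CB-6644 60 members are called, after both drugs 42, and 3, 3, 0 and 0 in the other comparisons.

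SNORD15B, a guide for 28S ribosomal RNA in an intron of RPS3 (chromosome 11, 75404421 to 75404566, GRCh38.p14), was the most abundant member. It stood at 994 and 1672 CPM on GFP beads after CB-6644, against 24.3 and 23.5 CPM on uncoupled beads. The difference was 5.76 ± 0.41 on the log2 scale (log2 difference ± SE, as for all errors on log2 values below), a 54.2-fold excess with an adjusted p of 1.13e-08 in edgeR. After both drugs it reached 2600 and 1918 CPM on GFP beads, against 20.4 and 36.5 CPM on uncoupled beads. In untreated cells it was 13.7 and 16.5 CPM on GFP beads and 8.62 and 4.50 CPM on uncoupled beads, where the log2 difference of 1.15 ± 0.37 did not pass the test (edgeR adjusted p = 0.179). SNORD15B alone took 46.7% and 29.9% of the members' counts on GFP beads after CB-6644. Without it, the members still summed to 1135 and 3926 CPM on GFP beads, against 96.2 and 88.3 CPM on uncoupled beads.

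Its neighbour SNORD15A, also in RPS3, stood at 41.0 and 230 CPM on GFP beads and 6.05 and 2.37 CPM on uncoupled beads after CB-6644. The groups did not overlap, but the log2 difference of 4.96 ± 1.12 did not pass the test (edgeR adjusted p = 0.0602). SNORD17, the longest member and a 28S guide in SNX5, had 293 and 1106 CPM on GFP beads against 8.90 and 8.40 CPM on uncoupled beads, a difference of 6.29 ± 0.73 (edgeR adjusted p = 0.00184). Per kilobase of annotated length, the level on GFP beads after CB-6644 was 9130 CPM for SNORD15B, 2951 CPM for SNORD17 and 1475 CPM for SNORD14C, the first 3 of all members. Length and log2 difference were weakly related over the 54 members that pass on uncoupled beads (Spearman's rho = 0.206 across snoRNAs measured in the same libraries).

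SNORD33, an 18S guide in RPL13A, had 21.8 and 58.8 CPM on GFP beads against 0.459 and 0.818 CPM on uncoupled beads after CB-6644 (5.91 ± 0.49, edgeR adjusted p = 1.11e-07). SNORD58A, a 28S guide in RPL17 and the close relative of the sequence printed above, had 13.2 and 58.5 CPM against 0.550 and 0.431 CPM (6.12 ± 0.56, adjusted p = 6.1e-07). SNORD89, in RNF149, had 9.68 and 17.3 CPM against 0.459 and 0.345 CPM (5.00 ± 0.50). Every GFP library lay above every uncoupled library for these genes. SNORD2, in EIF4A2, had 6.77 and 7.02 CPM on GFP beads against 0.183 and 0.302 CPM on uncoupled beads (4.75 ± 0.58). SNORD12B and SNORD12C, both in the non-coding host ZFAS1, rose by 4.48 ± 0.56 and 3.68 ± 0.48, and SNORD8, in CHD8, by 5.42 ± 0.60. With SNORD15B these are the 8 members with the smallest p, and all had edgeR adjusted p-values of 0.000159 or less. SNORD12, the other ZFAS1 snoRNA tested, rose too (4.73 ± 1.13, adjusted p = 0.03), as did SNORD58C (6.46 ± 1.59, adjusted p = 0.0338).

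**Figure D3:**
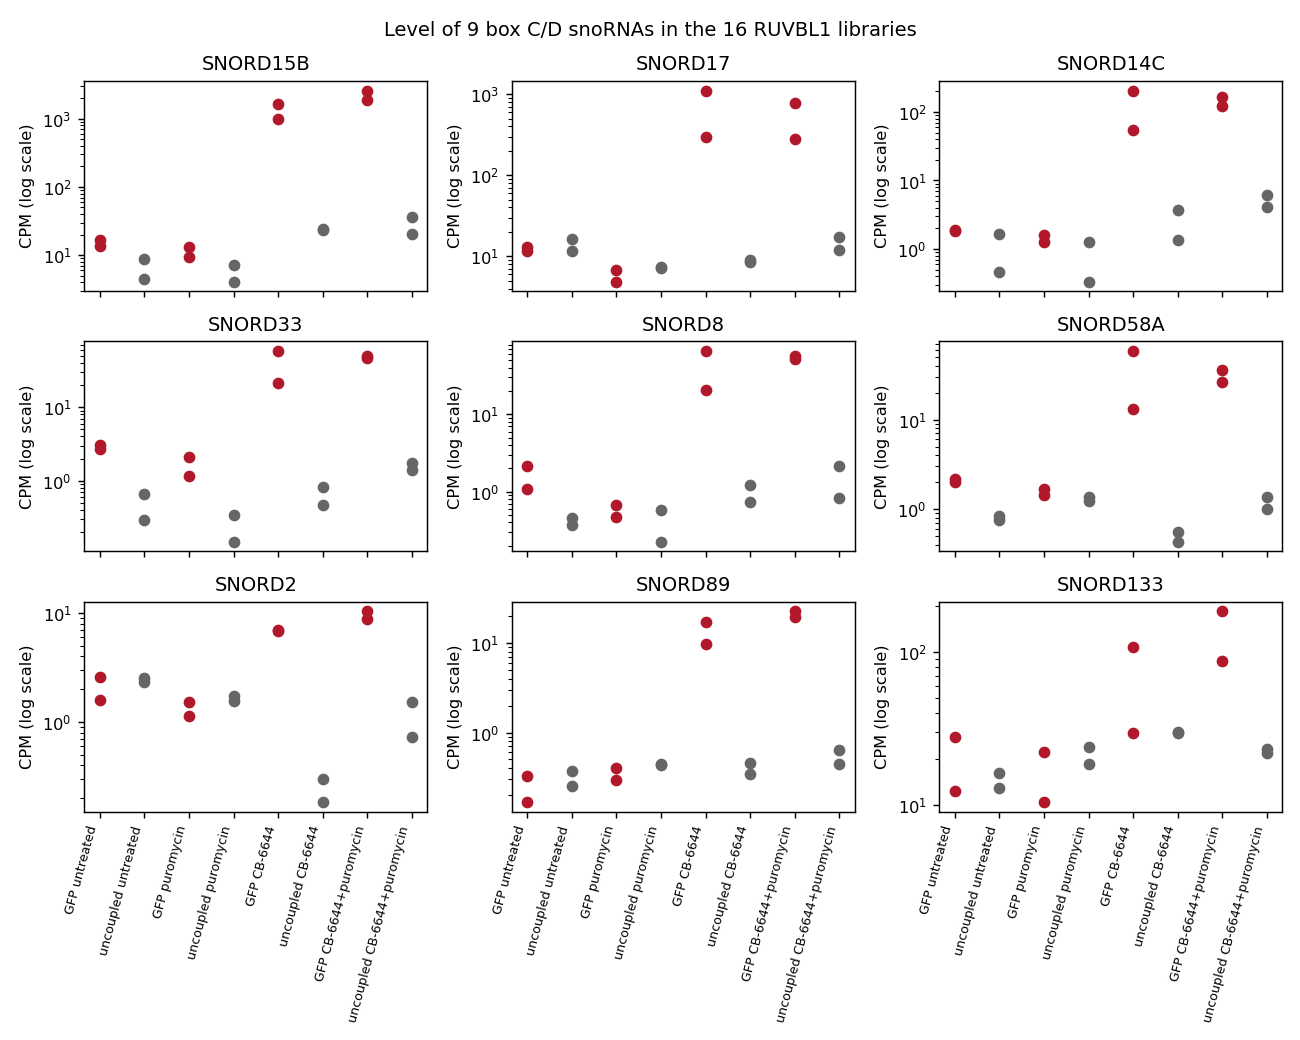
CPM (log scale) of 9 members in the 16 RUVBL1 libraries, GFP beads in red and uncoupled beads in grey, 2 points per group. SNORD15B reaches 994 and 1672 CPM on GFP beads after CB-6644 against 24.3 and 23.5 CPM on uncoupled beads, while for SNORD133 one GFP library (29.6 CPM) lies just below the uncoupled ones (29.7 and 29.9 CPM).

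Members with different targets rose side by side. Among guides for 28S ribosomal RNA that pass on uncoupled beads 16 of 21 were called higher after CB-6644, with a median log2 difference of 4.96, and among guides for 18S ribosomal RNA 5 of 7, with a median of 4.13, against 1.82% of all genes and a median of -0.01. Without both libraries high in H/ACA snoRNAs these were 12 of 21 (median 4.16) and 3 of 7 (median 3.09). All 5 tested copies of SNORD14 (U14), an RNA needed for 18S processing in yeast, were called, as were the 3 that pass on uncoupled beads (3 of 3 also without both libraries high in H/ACA snoRNAs): SNORD14C, SNORD14D and SNORD14E in HSPA8 rose by 5.65 ± 0.79, 5.27 ± 0.78 and 4.75 ± 0.78, and SNORD14A and SNORD14B in RPS13 by 6.79 ± 1.55 and 4.44 ± 0.83 (edgeR adjusted p = 0.022 and 0.00532). Of the U6 snRNA guides, 4 of 5 tested were called (3 of the 4 that pass on uncoupled beads, and 2 of 4 without both libraries high in H/ACA snoRNAs), namely SNORD8 and SNORD9 in CHD8, SNORD67 in CKAP5 (4.31 ± 0.79) and SNORD94 in PTCD3 (4.70 ± 1.04). The fifth, SNORD10 in EIF4A1, had 21.4 and 285 CPM on GFP beads and 11.4 and 3.10 CPM on uncoupled beads (4.34 ± 1.38, adjusted p = 0.125). SNORD7, the other U6 guide, had too few counts to test. Reads of close copies such as SNORD14A to SNORD14E could have been split or merged in counting, so values for single copies are uncertain.

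The called members with 0 counts in both uncoupled libraries after CB-6644 were SNORD135, SNORD88A, SNORD88C and SNORD59B. Against a floor of 3 counts over both uncoupled libraries, their mean on GFP beads was at least 86.6-fold, 49.7-fold, 65.2-fold and 70.0-fold higher. These means lean on replicate 2, which was high in H/ACA snoRNAs. Its CPM was 4.23, 3.56, 6.22 and 15.9 times that of replicate 1, so replicate 1 alone gives smaller ratios. SNORD135, in TNPO2, had 44 and 101 counts on GFP beads, SNORD88A had 29 and 56, SNORD88C 24 and 81, and SNORD59B 11 and 95. SNORD41, the other TNPO2 snoRNA and a 28S guide, rose by 7.59 ± 0.87 (edgeR adjusted p = 0.000252). SNORD134, in FASN, was with SNORD135 one of 2 called members named SNORD126 or later, at 5.41 ± 0.72 (adjusted p = 0.00139).

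Some abundant members did not pass. SNORD133, in LARP4 and among the 8 most abundant members, had 108 and 29.6 CPM on GFP beads against 29.7 and 29.9 CPM on uncoupled beads after CB-6644, so the groups overlapped (1.18 ± 0.64, edgeR adjusted p = 0.314). It was also present in every RPAP3 library, at up to 50.5 CPM. SNORD48, in SNHG32, had 3.41 and 6.37 CPM on GFP beads against 0.917 and 1.68 CPM on uncoupled beads (1.85 ± 0.62, adjusted p = 0.0971). Among the most abundant members, SNORD97 in EIF4G2 was near the threshold (5.00 ± 1.01, adjusted p = 0.0454), with 61.6 and 300 CPM against 3.90 and 7.02 CPM. SNORD55, a 28S guide, rose by 5.57 ± 0.89 (adjusted p = 0.0188).

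The GFP libraries after CB-6644 differed in level from each other. Of 89 members with at least 10 counts in both, 81 were higher in replicate 2, with a median ratio of 2.76 and a range of 0.275 (SNORD133) to 15.9 (SNORD59B). Ranks were nonetheless similar (Spearman's rho = 0.858 across these members). For 30 box H/ACA snoRNAs that reached 10 counts in both, the median ratio was 7.72 and rho was 0.151. After both drugs the box C/D median ratio of replicate 1 over replicate 2 was 0.948 over 93 members (rho = 0.960), while the H/ACA ratio was 4.50 over 30.

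**Figure D4:**
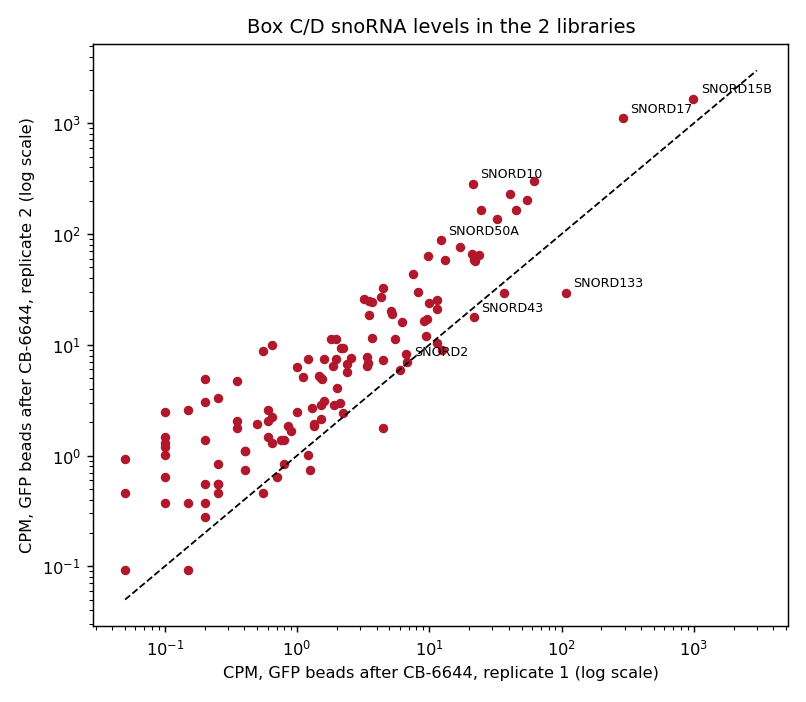
CPM of each box C/D snoRNA in replicate 1 (x axis) and replicate 2 (y axis) of the GFP beads after CB-6644, both on log scales, for members with a count in both, with the line of equality dashed. Most points lie above the line, with a median ratio of 2.76 over 89 members, and SNORD133 lies furthest below it.

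Box H/ACA snoRNAs offered a comparison in the same libraries. After CB-6644, 0 of 79 tested were called by edgeR (15 at an unadjusted p under 0.05), with a median log2 difference of 2.14, and after both drugs 0 of 79 (1 at an unadjusted p under 0.05), with a median of 0.73. The median of 0.73 includes the library that stood apart, and no value without it is given. Without the libraries that stood apart the H/ACA median after CB-6644 was -1.15, again with 0 of 79 called. In the GFP libraries that did not stand apart, their summed level was 60.3 CPM after CB-6644 and 84.5 CPM after both drugs, below the 99.5 to 169 CPM on the matching uncoupled beads. Among the box C/D classes left out above, 7 of 7 tested SNHG1 snoRNAs, 6 of 9 GAS5 snoRNAs and 2 of 5 U3, U8 and U13 genes were called higher after CB-6644, against 1.87% of all genes, and without both libraries 6 of 7, 4 of 9 and 2 of 4, against 0.975%. Members of these left-out classes could pass the filter only because they were high on GFP beads after CB-6644. No count for those that pass on uncoupled beads alone is given, so their shares cannot be weighed against those of all genes. No test of the difference between classes was made.

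The host genes were tested in the same libraries. After CB-6644, 1 of 105 was called higher, AP1B1 at 0.94 ± 0.25 (edgeR adjusted p = 0.0479), and 0 were lower. For the called members, 40 host genes were tested and 0 were called with all libraries, while 21 of these hosts had an unadjusted p under 0.05. Their median log2 difference was -0.38, with a range of -1.07 to 1.77. NOP56, the host of SNORD110 and SNORD57, was at 0.62 ± 0.26, and at 1.01 without both libraries high in H/ACA snoRNAs. The 0 called hosts holds for the fit of all libraries only. Of the 54 members that pass on uncoupled beads, 51 had a tested host and all 51 had the higher log2 difference, by a median of 4.78 (3.63 without both libraries high in H/ACA snoRNAs, again 51 of 51). Without both libraries 3 of 108 tested host genes were called higher. RPS3, the host of SNORD15B, was at -0.61 ± 0.33 (adjusted p = 0.271), and ZFAS1 at -1.07 ± 0.31 (adjusted p = 0.0642). By host class, 15 of 21 members in ribosomal protein genes, 8 of 10 in non-coding hosts and 16 of 22 in other protein-coding genes were called among those that pass on uncoupled beads, against 1.82% of all genes. Without both libraries these were 12 of 21, 5 of 10 and 12 of 22, against 1.02%.

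**Figure D5:**
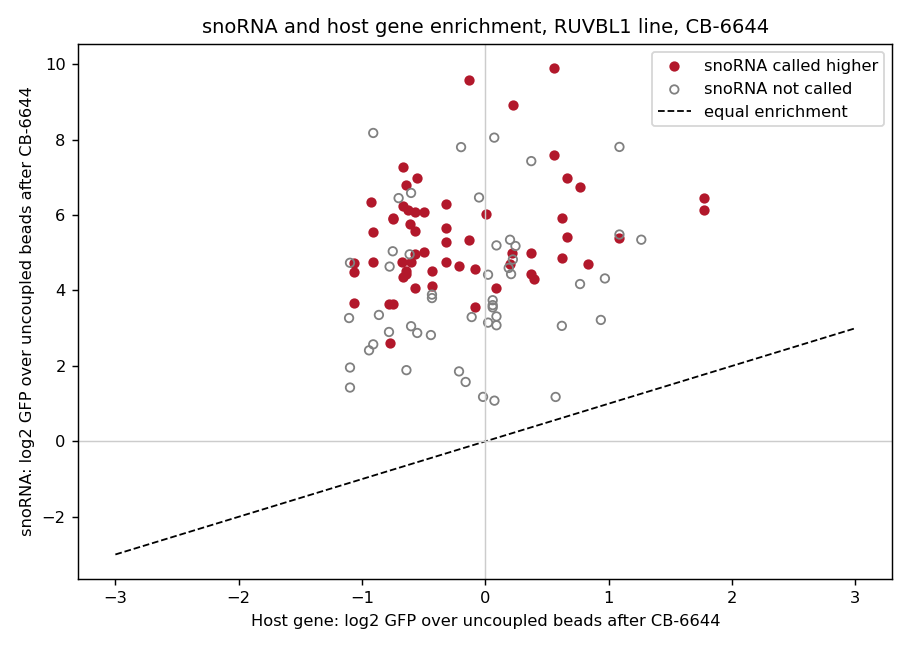
Log2 difference of GFP over uncoupled beads after CB-6644 for each tested snoRNA (y axis) and its host gene (x axis), with members called higher filled and equality dashed. All points lie above the dashed line, and the hosts of called members range from -1.07 to 1.77. Many members were tested only because they were high on these GFP beads, and the 51 that pass on uncoupled beads are not marked.

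Of the mRNAs of the particle's own proteins, 0 of 4 core genes (NOP56, NOP58, FBL and SNU13) were called by edgeR after CB-6644, and 3 had an unadjusted p under 0.05. These 3 differed in direction, with NOP56 at 0.62 ± 0.26, FBL at -0.71 ± 0.27 and SNU13 at -0.75 ± 0.25. Without both libraries high in H/ACA snoRNAs the same genes were at 1.01 ± 0.22, -0.29 ± 0.23 and -0.38 ± 0.23. That fit leaves a single GFP library after CB-6644, so its calls for these mRNAs are not given. The 0 of 4 holds for the fit of all libraries only. Among 8 assembly factor genes, RPAP3 itself rose by 2.52 ± 0.45 (edgeR adjusted p = 0.0139). ZNHIT6, which binds NUFIP1 during assembly, rose by 0.94 ± 0.25 (adjusted p = 0.0435). Without both libraries high in H/ACA snoRNAs RPAP3 and ZNHIT6 were at 3.02 ± 0.41 and 1.26 ± 0.24. After both drugs these mRNAs were at -0.21 ± 0.43 and -0.16 ± 0.25 and were not called. The snoRNAs hosted by NOP56 (SNORD110 at 4.87 ± 0.75, SNORD57 at 5.91 ± 0.98) and NOP58 (SNORD11 at 4.06 ± 0.94) rose after CB-6644 (adjusted p = 0.000512, 0.00417 and 0.0232).

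The recovery after CB-6644 was still seen when puromycin was added. After both drugs 42 members rose and 0 fell, against 0.557% of all genes called higher, and among the 54 that pass on uncoupled beads 28 rose, against 0.485%. The median log2 difference of those 54 was 3.98 with all libraries. Both GFP libraries lay above both uncoupled libraries for 117 of 151 members with a count (77.5%), against 21.2% of all genes. SNORD15B led again (6.31 ± 0.42, 79.3-fold, edgeR adjusted p = 5.03e-09), followed by SNORD89 (5.28 ± 0.49), SNORD33 (4.93 ± 0.45) and SNORD58A (4.71 ± 0.51). SNORD38B (5.00 ± 0.61), SNORD12B (4.47 ± 0.56), SNORD35A in RPL13A (6.52 ± 0.79) and SNORD8 (5.21 ± 0.58) completed the 8 with the smallest p. The calls of the 2 settings shared 40 members, 66.7% of the 60 after CB-6644 and 95.2% of the 42 after both drugs. The fits below left out libraries and have no share of all genes beside them, so their counts need not be particular to the snoRNAs. Without the libraries high in H/ACA snoRNAs 39 members rose, but without replicate 1 or 2 of the uncoupled beads 8 and 16 did.

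Taking the 4 GFP libraries of both CB-6644 settings together, 79 of 165 members with a count were higher in each of them than in any of the other 20 libraries (47.9%), against 0.688% of all genes with a count. For the 2 of these libraries that were not high in H/ACA snoRNAs it was 83 of 165 (50.3%), against 1.43%. The change in recovery when puromycin was added to CB-6644 passed for 0 of 113 members in edgeR and 0 in DESeq2, with 7 at an unadjusted p under 0.05, against 0.0501% of all genes called in either direction. The median change over the 113 was -0.84 with all libraries, and 27 were positive. Many of the 113 were tested only because they were high on GFP beads after CB-6644, which favours a negative change. No median for all genes or for the members that pass on uncoupled beads is given, so a fall in recovery is not established. In 51 members that pass on uncoupled beads, the log2 difference was also set against that of the host gene. The median excess was 4.78 after CB-6644 and 3.80 after both drugs. Without both libraries high in H/ACA snoRNAs it was 3.63 and 3.69. SNORD17 shows the spread between libraries, with 780 and 279 CPM on GFP beads after both drugs and 293 and 1106 CPM after CB-6644 alone.

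Whether CB-6644 changed the recovery was asked with the difference of the log2 differences, CB-6644 over untreated. It passed for 6 of 113 members, all higher, against 0.138% of all genes, while 63 had an unadjusted p under 0.05. SNORD15B changed by 4.61 ± 0.52 (edgeR adjusted p = 4.18e-05), SNORD2 by 4.99 ± 0.75 (0.00123), SNORD89 by 5.30 ± 0.83 (0.0018), SNORD58A by 4.77 ± 0.78 (0.0051) and SNORD17 by 6.50 ± 0.91 (0.0204). SNORD135 also passed (adjusted p = 0.0107), but its fitted change of 11.68 rests on 0 counts on uncoupled beads after CB-6644 and is no measure of size. For SNORD2 both sides moved: GFP beads held 6.77 and 7.02 CPM after CB-6644 and 2.58 and 1.59 CPM in untreated cells, and uncoupled beads 0.183 and 0.302 CPM after CB-6644 and 2.51 and 2.35 CPM in untreated cells. SNORD58A lost its call without replicate 1 of the untreated uncoupled beads (adjusted p = 0.262). SNORD17 lost it without either untreated GFP library, either uncoupled CB-6644 library or that same untreated library (adjusted p of 0.139 to 0.272). SNORD135 lost it without that library (0.441), without replicate 1 of the untreated GFP beads (0.0508) or without replicate 1 of the uncoupled beads after CB-6644 (0.0505). The number of such changes varied: DESeq2 called 36, the fit of all 24 libraries 17, and it was 45 without the first GFP library after CB-6644, 11 without the second and 12 without replicate 2 of the untreated uncoupled beads. On the uncoupled beads alone, CB-6644 against untreated gave 0 called members in edgeR (14 at an unadjusted p under 0.05) and 2 in DESeq2, where the share of all genes called was 0%.

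In untreated cells 3 members were higher on RUVBL1 GFP beads than on uncoupled beads, against 0.914% of all genes. Those were SNORD38B, with 2.74 and 2.06 CPM on GFP beads against 0.209 and 0.281 CPM on uncoupled beads (3.30 ± 0.64, edgeR adjusted p = 0.00854), SNORD33, with 3.03 and 2.67 CPM against 0.293 and 0.657 CPM (2.72 ± 0.54, adjusted p = 0.0132), and SNORD24, a 28S guide in RPL7A, with 3.74 and 3.19 CPM against 0.670 and 0.469 CPM (2.54 ± 0.60, adjusted p = 0.0395). Their groups did not overlap. All 3 also pass the filter on uncoupled beads, where 0.97% of all genes were called. Both GFP libraries exceeded both uncoupled libraries for 43 of 134 members with a count (32.1%), against 13.4% of all genes. The call rests on few counts, with 3 to 16 per member in the uncoupled libraries, and was lost for all 3 without replicate 1 of the GFP beads or replicate 2 of the uncoupled beads. Without replicate 1 of the uncoupled beads 1 member was called.

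After puromycin alone 3 members were higher on GFP than on uncoupled beads, where 9.95% of all genes were. SNORD83B in RPL3 had 1.87 and 2.46 CPM on GFP beads against 0.194 and 0.112 CPM on uncoupled beads (3.74 ± 0.76, edgeR adjusted p = 0.00242). SNORD33 was higher on GFP beads by 2.72 ± 0.60 (adjusted p = 0.00463), close to its 2.72 ± 0.54 in untreated cells. SNORD65, an 18S guide in SNHG29, was higher by 4.62 ± 1.25 (adjusted p = 0.0163). It had 25 and 19 counts on GFP beads against 0 and 1 counts on uncoupled beads. Among the members that pass on uncoupled beads 2 of 54 rose, against 10.6% of all genes, and 38 of 139 members with a count were separated in CPM (27.3%), against 29.7%. The change in recovery from untreated to puromycin-treated cells passed for 0 of 113 members in edgeR and in DESeq2 (3 at an unadjusted p under 0.05), against 0.113% of all genes. On uncoupled beads 0 members changed with puromycin in either tool (5 at an unadjusted p under 0.05), and 0% of all genes were called. With GFP replicate 2 left out 1 member rose after puromycin, as it did with uncoupled replicate 1 left out.

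With RPAP3 no tested member was called. In untreated cells 0 of 59 were called by edgeR and by DESeq2, with 0 at an unadjusted p under 0.05, against 1.54% of all genes. After puromycin the counts were the same, against 0.46%. In CPM, 18 of 148 members with a count were separated upward in untreated cells (12.2%, against 10.6% of all genes) and 14 of 136 after puromycin (10.3%, against 11.4%). Separated downward were 16 members in untreated cells (10.8%, against 22.5% of all genes) and 28 after puromycin (20.6%, against 18.6%). SNORD15B had 2.48 and 4.48 CPM on GFP beads against 1.78 and 5.31 CPM on uncoupled beads in untreated RPAP3 cells, so the groups overlapped. SNORD17 had 12.1 and 10.2 CPM against 8.25 and 10.6 CPM. The change with puromycin passed for 0 of 59 members in edgeR and DESeq2 (0 at an unadjusted p under 0.05), against 0.25% of all genes.

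Set against each other in a fit of all 24 libraries with 120 members tested, the recovery by RUVBL1 over that by RPAP3 differed for 0 members in untreated cells in edgeR and DESeq2 (10 at an unadjusted p under 0.05), against 0.407% of all genes. In puromycin-treated cells it differed for 1 member, SNORD33, against 3.98% of all genes called higher with RUVBL1. SNORD33 had 1.14 and 2.10 CPM on RUVBL1 GFP beads against 0.146 and 0.336 CPM on RUVBL1 uncoupled beads, while the RPAP3 line had 1 and 1 counts on GFP beads against 3 and 8 counts on uncoupled beads. The difference was 4.78 ± 1.38 (edgeR adjusted p = 0.0481). It was not called without replicate 2 of the RUVBL1 GFP beads, replicate 1 or 2 of the RUVBL1 uncoupled beads, either RPAP3 GFP library or replicate B of the RPAP3 uncoupled beads.

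In the RPAP3 line, 3 members were lower with puromycin on the uncoupled beads themselves, where 19.4% of all genes were lower. SNORD48 had 1.63 and 1.13 CPM with puromycin and 3.40 and 2.78 CPM without (-1.05 ± 0.35, edgeR adjusted p = 0.0198). SNORD24 had 0.0459 and 0.0322 CPM against 0.572 and 0.394 CPM (-3.39 ± 1.22, adjusted p = 0.0285). SNORD51, in EEF1B2, had 0 and 0 counts with puromycin and 0 and 33 counts without, so its call rests on replicate B of the untreated beads alone. Without either puromycin-treated uncoupled library 1 member was called.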

How the data were processed

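The authors deposited 1 table of raw read counts per gene for 24 RNA immunoprecipitation libraries of HCT116 cells. Per the submitters' processing notes, the tools include TopHat2 2.1.1 and featureCounts 2.0.3, and the build is hg38. Per the labels' protocols the library kit was stranded. The strand setting and the handling of reads with several placements are not given in the sources used here.

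Groups came from the labels. Each line was fitted with edgeR 4.0.16 in R 4.3.3 (filterByExpr with a minimum count of 10, TMM scaling, robust quasi-likelihood), with 15976 genes tested over 16 RUVBL1 libraries, 15202 over 8 RPAP3 libraries and 16695 over all 24, and Benjamini-Hochberg adjustment over all genes at 0.05. Standard errors derive from the F statistic and pool the spread over the fit. The floors cover counting error only, and PCR copies could not be told apart. The fit was checked on simulated data. Host genes were the annotated genes that hold a snoRNA by position in the GRCh38.p14 gene table. Alternatives were DESeq2 1.42.0, other scalings and filters, the replicate number as a block, and leaving out each library. The named members are up to 8 called per comparison by smallest p, the 8 most abundant, the U14, U6 and 15q11 lists, and snoRNAs sharing a host with these. Others are named for a contrast and were chosen after their values were seen. Members and lists were chosen with earlier results of these data known.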

Additional observations from a re-analysis of the deposited data

Results flagged for a closer look

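For 6 box C/D snoRNAs the recovery by RUVBL1 over uncoupled beads differed between CB-6644 and untreated cells by a test of the difference itself (edgeR, adjusted over all genes). The log2 changes were 5.30 ± 0.83 for SNORD89 (adjusted p = 0.0018), 4.99 ± 0.75 for SNORD2 (0.00123), 4.61 ± 0.52 for SNORD15B (4.18e-05), 4.77 ± 0.78 for SNORD58A (0.0051), 11.68 ± 2.11 for SNORD135 (0.0107, fitted against 0 counts on uncoupled beads) and 6.50 ± 0.91 for SNORD17 (0.0204). For SNORD33 the recovery after puromycin differed between the RUVBL1 and RPAP3 lines by 4.78 ± 1.38 (adjusted p = 0.0481), with at most 8 counts in each RPAP3 library of that comparison.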

How the results depend on the processing

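Each group had 2 libraries, which limits the precision of every count here. The 60 members higher after CB-6644 were 64 in DESeq2, 37 without both libraries high in H/ACA snoRNAs and 38 when genes had to pass on uncoupled beads, where fewer were tested, and they ranged from 23 to 77 over fits that left out 1 library. The 42 after both drugs were 57 in DESeq2 and 8 to 32. The 6 changes with CB-6644 were 36 in DESeq2, 17 in the fit of all 24 libraries and 13 with the replicate block, and 4 to 45. The 3 in untreated RUVBL1 cells ranged from 0 to 2, the 3 after puromycin from 1 to 4, and the 0 changes between both drugs and CB-6644 from 0 to 2. For the lines compared after puromycin, the 1 member was 2 in DESeq2, 0 with RLE and with upper-quartile scaling, and 0 to 1. In untreated cells the 0 became 1 with a lower filter and 1 with the replicate block, and 0 to 1. The 3 on RPAP3 uncoupled beads were 1 in DESeq2, 1 with a stricter filter, and 1 to 3. RPAP3 after puromycin had 1 with a lower filter, and RUVBL1 uncoupled beads after CB-6644 had 2 in DESeq2. The cause was not tested, and shares of all genes called under most of these alternatives are not given here. Replicate numbers did not pair the libraries: deviations of same-numbered libraries correlated at -0.373 to 0.244 over 28 pairs of RUVBL1 groups and -0.134 to 0.183 over 6 pairs of RPAP3 groups. The replicate block gave 61 after CB-6644 and 46 after both drugs. Of 439 values of 32 single-member results under alternatives, 49 (SNORD17's change with CB-6644 under the replicate block, adjusted p = 0.0531, among them) lost the call with the direction kept or at 0, and 0 reversed.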
